A study of Arabidopsis thaliana with 20 samples.

Results

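The data were narrow peak lists from ChIP-seq of GFP-tagged BCL7A in Arabidopsis thaliana seedlings with and without the ATPase BRM. There were 4 libraries of the 20 in the series, 2 of BCL7A brm-1 and 2 of BCL7A, chosen by their labels. In both groups, according to the methods of the study, BCL7A-GFP was expressed from its own promoter in the bcl7a single mutant, and the BCL7A brm-1 plants carried the loss-of-function mutation brm-1 in addition, so neither group was wild type. All seedlings were 14 days old and grown in short days, and chromatin was precipitated with an antibody against GFP. The BCL7A brm-1 lists held 18837 and 18870 peaks on the 5 nuclear chromosomes, against 18254 and 18100 in the BCL7A lists. A region with a peak in all 4 lists was found 14934 times, and 20179 of the 37899 annotated nuclear genes had a transcription start site (TSS) within 2 kb of the summit of such a region. Peak lists hold no transcript levels, so neither the tissue nor the brm-1 genotype could be checked from them.

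SWI/SNF complexes use ATP to slide or evict nucleosomes and thereby open regulatory DNA. In Arabidopsis their motor is BRM, SYD or one of the MINU proteins, and each motor defines a class of complexes with its own partner subunits. BCL7A and BCL7B are small related subunits of these complexes, and brm mutants are known for small organs, altered leaf shape and altered timing of developmental phases.

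The strength of a peak was its fold enrichment, which is the fragment pileup at the summit over the background, and it was expressed as a percentile rank within its own list, where 100 is the strongest peak. A change is the mean rank in BCL7A brm-1 minus the mean rank in BCL7A, in points. The median fold enrichment was 2.97 and 3.02 in the BCL7A brm-1 lists and 3.09 and 3.12 in the BCL7A lists. The median pileup at a summit was 89 and 88 fragments in BCL7A brm-1 and 82 and 83 fragments in BCL7A, over a genome background of 23.8 and 23.1 fragments and of 20.3 and 20.4 fragments. The BCL7A brm-1 libraries were thus somewhat deeper, and the lists carry no total read number. The 2 libraries of a group are replicates by their labels, so that p-values measure the spread between these libraries only.

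The promoters of 4 genes are shown because the BCL7A summit lay inside them and they had the largest changes among such genes, 2 in each direction. They are the 250 bases before the TSS in the TAIR10.1 annotation of RefSeq, 5′ to 3′ on the strand of the gene. RBCS2B encodes a small subunit of Rubisco, the enzyme that fixes carbon dioxide, and IAMT1 encodes an enzyme that methylates the auxin IAA. AT3G47295 encodes an uncharacterized protein, and AT1G22520 encodes a protein annotated as Mic10-like, of a family that shapes inner membranes of mitochondria. Capitals mark matches to 6 short motifs that were searched on both strands.

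AT3G47295, lower in BCL7A brm-1, chr3:17427700-17427949, plus strand: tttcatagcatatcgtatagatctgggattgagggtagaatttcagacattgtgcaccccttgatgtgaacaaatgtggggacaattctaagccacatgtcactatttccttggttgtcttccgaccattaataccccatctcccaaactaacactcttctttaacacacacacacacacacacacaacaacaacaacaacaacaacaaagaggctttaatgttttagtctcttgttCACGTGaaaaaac
RBCS2B, lower in BCL7A brm-1, chr5:15382072-15382321, minus strand: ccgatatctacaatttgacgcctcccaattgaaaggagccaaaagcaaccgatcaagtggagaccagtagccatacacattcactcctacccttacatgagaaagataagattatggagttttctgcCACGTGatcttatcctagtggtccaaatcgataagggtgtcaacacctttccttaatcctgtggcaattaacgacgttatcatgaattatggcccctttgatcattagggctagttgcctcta
IAMT1, higher in BCL7A brm-1, chr5:22410975-22411224, minus strand: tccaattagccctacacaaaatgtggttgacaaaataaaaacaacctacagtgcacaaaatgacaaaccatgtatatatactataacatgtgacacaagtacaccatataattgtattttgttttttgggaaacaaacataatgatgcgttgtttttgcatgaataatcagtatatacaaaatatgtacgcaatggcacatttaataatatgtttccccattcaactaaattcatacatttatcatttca
AT1G22520, higher in BCL7A brm-1, chr1:7954547-7954796, minus strand: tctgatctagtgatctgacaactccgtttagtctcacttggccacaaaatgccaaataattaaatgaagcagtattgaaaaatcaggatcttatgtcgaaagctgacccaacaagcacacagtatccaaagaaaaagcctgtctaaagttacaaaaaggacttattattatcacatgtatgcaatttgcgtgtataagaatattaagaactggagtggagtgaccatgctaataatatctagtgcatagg

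At AT3G47295 the BCL7A rank was 13.5 and 22.4 in the BCL7A brm-1 libraries, against 77.3 and 77.8 in the BCL7A libraries, with the summit at -148 bp from the TSS (negative values are upstream). At RBCS2B the rank was 31.0 and 26.5 in BCL7A brm-1, against 79.9 and 73.9 in BCL7A, with the summit at -125 bp. The 2 groups did not overlap at either promoter. IAMT1 ranked at 74.0 and 66.1 in BCL7A brm-1, against 16.9 and 33.2 in BCL7A, with the summit at -127 bp. AT1G22520 ranked at 77.3 and 70.9 in BCL7A brm-1, against 23.6 and 38.4 in BCL7A, with the summit at -62 bp. Both BCL7A brm-1 libraries again lay beyond both BCL7A libraries.

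The capitals in AT3G47295 and RBCS2B are G-boxes (CACGTG, which reads the same on both strands), which 6.49% of 27443 promoters of protein-coding genes held in the same window. The other motifs searched were the GAGA repeat (GAGAGA, in 20.6% of promoters), the telo-box (AAACCCTA, in 4.49%), the site II element (TGGGCC, in 13.7%), the TATA box (TATAAA, in 47.3%) and the GAA repeat (GAAGAAGA, in 7.28%). None of the 6 motifs was found in the windows of IAMT1 and AT1G22520.

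The microRNA miR156 is shown because MIR156d and its target gene SPL2 were among the largest changes described below. miR172 is shown because MIR172b was among the new genes of highest rank, while MIR172c and the miR172 target TOE2 changed by less. miR156 holds plants in the juvenile phase by repressing SPL transcription factors, and miR172, which SPL factors induce, represses AP2-type factors. The mature sequences were read from the TAIR10.1 genome at the annotated positions, 5′ to 3′, with the seed (bases 2 to 8) in capitals.

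miR156d-5p: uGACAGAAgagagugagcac
miR172b-3p: aGAAUCUUgaugaugcugcau
miR172c: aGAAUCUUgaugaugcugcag

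The mature miR156a-5p has the same letters as miR156d-5p, and the 2 miR172 species share their seed. SPL2, SPL10 and SPL11 each hold a site complementary to miR156 with 1 mismatch, written in lower case below and read on the strand of the gene.

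SPL2, chr5:17360758-17360777, minus strand: GTGCTCtCTCTCTTCTGTCA
SPL10, chr1:9505541-9505560, minus strand: GTGCTCtCTCTCTTCTGTCA
SPL11, chr1:9503618-9503637, plus strand: GTGCTCtCTCTCTTCTGTCA

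The first question was which genes carried BCL7A in each background. Genes with a summit within 2 kb of their TSS numbered 23195 and 23227 in the BCL7A brm-1 libraries, against 22531 and 22490 in the BCL7A libraries, a difference of 700.5 genes between the means. The groups did not overlap, and an exact two-sided permutation test gave p = 0.333, the smallest p that 2 against 2 libraries allow. With all lists shortened to the length of the shortest, the genes numbered 22738 and 22760 in BCL7A brm-1 and 22452 and 22490 in BCL7A, so the difference was 278 genes. The greater depth of the BCL7A brm-1 libraries moved with this difference, and its part in it was not tested.

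Both BCL7A brm-1 libraries had a summit at 22094 genes, and both BCL7A libraries had one at 21259 genes. Of the genes held in BCL7A, 20200 (95%) were retained, with a summit in both BCL7A brm-1 libraries. Any summit within 2 kb counted, so a retained gene could differ in the place and strength of its peak. A further 339 genes (1.59% of 21259) were lost, with no summit in range in either BCL7A brm-1 library, and 635 genes (2.87% of 22094) were new in BCL7A brm-1. Lost and new genes carried weak peaks: the median rank was 21.3 for lost genes in BCL7A and 21.0 for new genes in BCL7A brm-1. Retained genes had a median rank of 64.3 in BCL7A brm-1 and 63.5 in BCL7A.

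Some lost and new genes lay at the edge of the window, with a summit over 1500 bp from the TSS at 18% of the lost, 19.2% of the new and 11.2% of the retained genes. Where any part of a peak within 2 kb was counted in place of the summit, 252 of the 339 genes (74.3%) were still lost and 520 of the 635 genes (81.9%) still new. LAP5, a polyketide synthase of pollen wall formation, stood first among lost genes with ranks of 98.1 and 96.3 in BCL7A, but its summits lay at -1987 and -1981 bp from the TSS and it was not lost by the wider rule. The same held for OTP70, a pentatricopeptide repeat protein, with ranks of 94.8 and 95.2 in BCL7A and summits at 1984 and 1934 bp. Of the 10 lost genes of highest rank, 2 held by both rules, AT2G17300 and LAS. LAS, a GRAS transcription factor needed for axillary meristems, ranked at 75.0 and 58.9 in BCL7A, at 167 and 81 bp from its start.

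The other members of the developmental gene lists that lost their summits in BCL7A brm-1 were KNAT1, a homeobox factor of the meristem, MEA, a Polycomb histone methyltransferase, and MIR156a. Among the new genes, 5 of the 10 of highest rank held by both rules. They were AT5G22460 and its neighbour AT5G22470 (81.6 and 85.6 in BCL7A brm-1), TED6 and its neighbour FTM1 (77.9 and 87.7), and MIR172b (76.2 and 75.2, at 1768 and 1766 bp from its start). SPL4, a target of miR156 that promotes flowering, was new with ranks of 67.3 and 61.1 in BCL7A brm-1. MIR156i lay on the same peak. TFL2, which encodes the Polycomb-linked protein LHP1, and the gibberellin synthesis gene GA20OX1 were also new, but weaker. TFL2 ranked at 3.48 and 11.2 in BCL7A brm-1, near the bottom of the lists, and GA20OX1 at 27.1 and 34.4.

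Of the 166 microRNA genes with a summit in both BCL7A brm-1 libraries, 14 (8.43%) were new, beside 2.87% of all genes, a count that was not tested. Of the 151 with a summit in both BCL7A libraries, 2 were lost, MIR156a and MIR171a.

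At the regions with a peak in all 4 lists the question was how the strength of BCL7A changed in brm-1. The test (limma on percentile ranks, Benjamini-Hochberg adjustment over 14934 regions) called 0 regions (0%) lower and 0 (0%) higher in BCL7A brm-1, and the smallest adjusted p was 0.109. An unadjusted p under 0.05 was found at 2445 regions (16.4%). The count depended on the scale. On the log2 of the fold enrichment 444 regions (2.97%) were called lower and 160 (1.07%) higher, whereas on normal scores of the ranks 186 (1.25%) were called lower and 235 (1.57%) higher. Ranks of the summit pileup gave 122 lower (0.818%) and 134 higher (0.899%). Leaving out a library leaves 1 in its group, and the spread then comes from the other group alone, so calls made that way are not given. The median change over all regions was 0.709 and 0.563 points without BCL7A brm-1 replicate 1 or 2. It was 0.458 and 0.36 points without BCL7A replicate 1 or 2, beside 0.566 points with all libraries.

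The description therefore rests on a rule of size, a change of 10 points or more with both BCL7A brm-1 libraries beyond both BCL7A libraries. By this rule 2110 regions (14.1%) ranked lower in BCL7A brm-1 and 2577 (17.3%) ranked higher, and 5603 (37.5%) changed by less than 5 points. A rank is relative to the other peaks of its list. A region can thus rank higher because others fell, without more BCL7A there, and the reverse holds for lower regions. These counts are therefore not counts of gained or lost BCL7A. The excess of higher regions depended on how the lists were ranked. With lists of equal length 2371 regions ranked lower and 2227 higher, and with ranks taken among the tested regions only, 2416 ranked lower and 2427 higher, both settings chosen after seeing the data. The median absolute change of group means was 7.38 points. Replicates differed by a median of 6.95 points in BCL7A brm-1 and 7.25 points in BCL7A, a difference of single libraries and not of means. A change of 20 points or more without overlap was found lower at 858 regions and higher at 1114 regions. Ranks are compressed near 100, where a region can hardly rank higher. The 835 regions with a mean rank of 95 or more in BCL7A changed by a median of 1.03 points in either direction, and by up to 64.1 points, so a small change there does not show that occupancy held. By nearest region, 2723 genes (13.5% of 20179) ranked lower, 3256 (16.1%) ranked higher and 7880 (39.1%) stayed within 5 points.

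The genes with the largest changes are named next, 12 protein-coding genes in each direction. For these 24 genes the adjusted p of limma on ranks lay between 0.109 and 0.139, and all of them passed on the log2 fold and on normal scores. The genes were picked by their change in the same 4 libraries, so passing on these scales is not separate support. HA1, which encodes a proton pump of the plasma membrane, ranked at 32.1 and 36.8 in BCL7A brm-1, against 98.5 and 98.7 in BCL7A. Its summit (chr2:8222644, in an intron 1130 bp downstream of the TSS) had a pileup of 65 and 65 fragments in BCL7A brm-1, against 195 and 202 in BCL7A. HA1 was thus among the strongest BCL7A sites in BCL7A and below the middle of the list in BCL7A brm-1, a change of -64.1 points with a standard error of 8.25.

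SPL2, one of the factors that miR156 represses, ranked at 38.5 and 32 in BCL7A brm-1, against 95.4 and 96.9 in BCL7A. Its summits lay 90 and 724 bp downstream of the TSS in BCL7A brm-1 and 724 and 691 bp downstream in BCL7A. Their mean position, at 557 bp, was in the 5′ UTR. The summit near MIR156d (at -841 bp) lay in the 5′ UTR of its neighbour AT5G10946 and ranked at 28.0 and 6.43 in BCL7A brm-1, against 87.5 and 78.3 in BCL7A. PTL, a trihelix factor that restrains growth between sepals, ranked at 18.3 and 30.1 in BCL7A brm-1, against 91.0 and 85.9 in BCL7A. At all 3 sites the groups lay far apart, with an adjusted p of 0.109 in the test on ranks (limma). On normal scores of the same ranks the adjusted p was 6.34e-07 for SPL2, 0.00035 for MIR156d and 8.77e-05 for PTL (limma).

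ACC1, the acetyl-CoA carboxylase that supplies fatty acid elongation, ranked at 17.1 and 3.19 in BCL7A brm-1, against 85.6 and 69.6 in BCL7A. BG_PPAP, a beta-1,3-glucanase that degrades callose at plasmodesmata, ranked at 14.8 and 20.1 in BCL7A brm-1, against 85.8 and 84.5 in BCL7A, on a region shared with AT5G42110. VEL1, a protein of the VIN3 family that acts with Polycomb, ranked at 16.5 and 11.6 in BCL7A brm-1, against 65.1 and 77.5 in BCL7A. The remaining genes of this group were AT3G47295 with its neighbour SELT, the auxin efflux carrier family member AT1G76520 (31.0 and 38.2 in BCL7A brm-1, 95.2 and 85.7 in BCL7A) and the hydroxyproline-rich glycoprotein AT1G72600 (14.0 and 27.6 in BCL7A brm-1, 73.9 and 77.3 in BCL7A). All 12 had a BRM peak in both BRM libraries, where BRM ranked between 57.7 and 98.9. Such a peak was found at 75.9% of all regions tested, and at 8 of the 12 genes of the other direction named next.

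In the other direction the largest change was near AGL66, a MADS factor of pollen, with a summit at -1856 bp in an intron of another gene. AGL66 ranked at 92.0 and 89.6 in BCL7A brm-1, against 16.9 and 20.3 in BCL7A, with a pileup of 121 and 115 fragments against 49 and 51. AT1G35500 and MIR773a shared a summit, which ranked at 98.2 and 98.2 in BCL7A brm-1, against 38.6 and 54.2 in BCL7A. The pileup there was 166 and 164 fragments in BCL7A brm-1 and 59 and 68 in BCL7A. At both sites the BCL7A brm-1 libraries lay far above the BCL7A libraries.

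DCI1, an isomerase of peroxisomal fatty acid breakdown, ranked at 81.6 and 73.8 in BCL7A brm-1, against 16.0 and 36.3 in BCL7A. It is a close neighbour of SPL2 on chromosome 5, and its summit lay 16 bp from its TSS. BNQ3, a helix-loop-helix protein that does not bind DNA itself, and SRO4 shared a region that ranked at 69.7 and 73.8 in BCL7A brm-1, against 14.8 and 14.0 in BCL7A. AT1G70420 ranked at 68.3 and 68.8 in BCL7A brm-1, against 8.25 and 19.9 in BCL7A.

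The cystatin gene AT5G47550 and AT5G47540 shared a region that ranked at 72.3 and 75.1 in BCL7A brm-1, against 17.5 and 21.5 in BCL7A. The pectin lyase-like gene AT4G35670 and AT4G35660 shared one that ranked at 78.7 and 68.5 in BCL7A brm-1, against 34.3 and 5.62 in BCL7A. AT4G01350 (69.3 and 52.6 in BCL7A brm-1, 14.8 and 0.707 in BCL7A) and AT5G41420 (63.8 and 75.5 in BCL7A brm-1, 15.7 and 19.3 in BCL7A) completed the group. By the mean summit of a region, 8 of the 12 lower genes and 1 of the 12 higher genes fell in a 5′ UTR. BG_PPAP and AT5G42110, which share a region, were counted each. Over all regions tested the share in 5′ UTRs was 33.7%, at 37.3% of the lower and 30.5% of the higher regions by the rule of size. The contrast was thus much smaller outside these extremes.

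**Figure D1:**
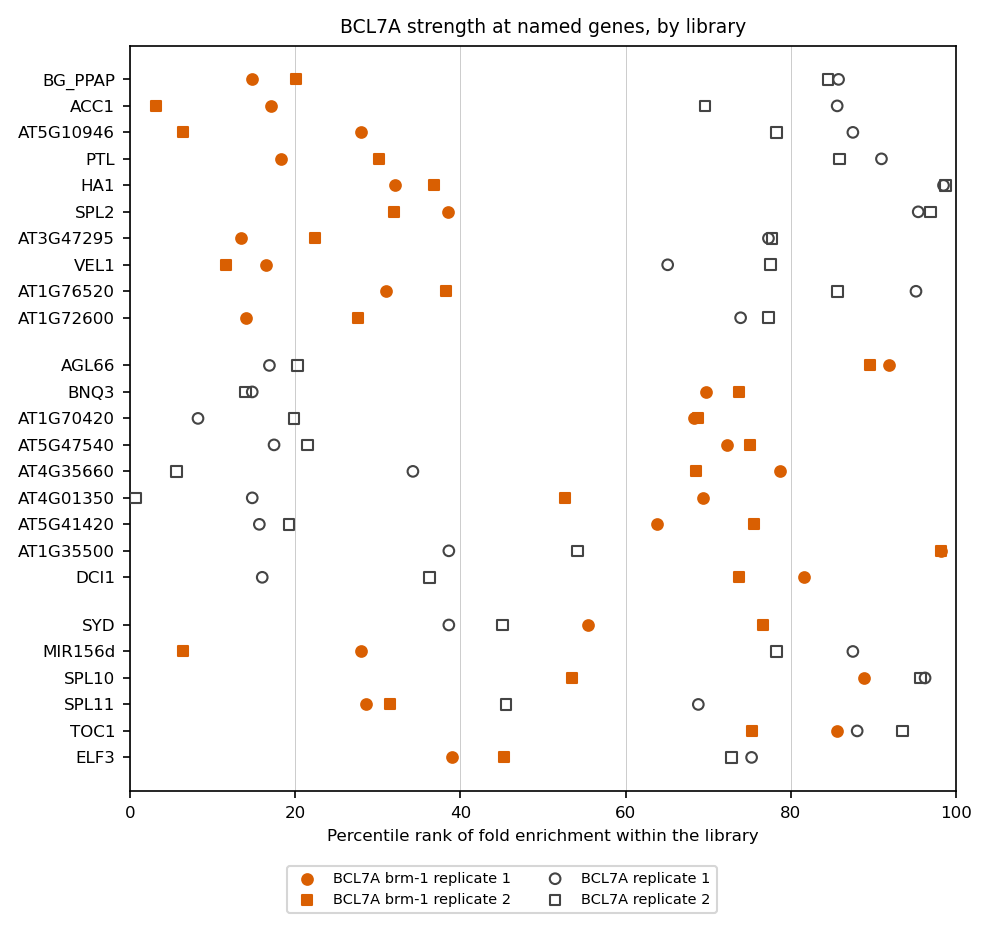
Percentile rank of BCL7A fold enrichment (horizontal axis, 0 to 100) in the 2 BCL7A brm-1 libraries (filled) and the 2 BCL7A libraries (open) at the sites of the genes that ranked lower by most in BCL7A brm-1 (upper block), those that ranked higher by most (middle block) and 6 members of the gene lists (lower block). At SPL2 the BCL7A brm-1 libraries sit at 38.5 and 32 and the BCL7A libraries at 95.4 and 96.9, whereas at AGL66 the order is the opposite, with 92.0 and 89.6 against 16.9 and 20.3.

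The position of BCL7A summits relative to genes differed slightly between the groups. The share of summits within 200 bp of a TSS was 53.8% and 54.1% in BCL7A brm-1, against 55.6% and 55.5% in BCL7A. The share of intergenic summits (outside genes and not within 1 kb upstream of one) was 16.7% and 16.7% in BCL7A brm-1, against 15.3% and 15.3% in BCL7A. Both groups thus had most summits at the starts of genes, with a small excess away from them in BCL7A brm-1.

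Summits in introns made up 3.63% and 3.53% in BCL7A brm-1, against 4.22% and 4.23% in BCL7A, and those in coding exons 8.00% and 7.40%, against 6.66% and 6.76%. The share within 1 kb upstream was 30.6% and 31.0% in BCL7A brm-1, against 32.5% and 32.3% in BCL7A. For all of these the groups did not overlap and the exact permutation test gave the smallest possible p of 0.333, and each kept its direction in lists of equal length. The median summit lay 15 and 12 bp downstream of the TSS in BCL7A brm-1 and 11 and 11 bp downstream in BCL7A, and with lists of equal length the groups overlapped, at 14 and 11 bp against 11 and 11 bp. Within a shared region the summits of single libraries lay a median of 43 bp apart between groups, beside 41 bp between replicates of 1 group.

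The regions that ranked lower and those that ranked higher in BCL7A brm-1 were unevenly spread over the genome. Intergenic regions ranked lower in 8.84% and higher in 26.2% of 2218 cases, beside 14.1% and 17.3% of all regions. Regions in introns ranked lower in 24% and higher in 14.5% of 517 cases. Regions in 5′ UTRs were balanced, at 15.6% lower and 15.6% higher of 5029, and those within 1 kb upstream were nearly so, at 13.1% and 15.1% of 5071.

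By distance, regions over 2 kb from any TSS ranked lower in 9.91% and higher in 25.6% of 1231 cases, and those between 2000 and 200 bp upstream in 10.3% and 21.9% of 3157. Regions between 200 and 500 bp downstream ranked lower in 21% and higher in 14.8% of 827 cases, and those between 500 and 2000 bp downstream in 21.9% and 15.8% of 1077. Within 200 bp of the TSS, which holds most regions, the shares lay nearer to those of all regions, at 14.6% lower and 12.5% higher of 3589 upstream and 14.4% lower and 16.4% higher of 5053 downstream. Since the change of rank depends on strength, annotation classes were also read among regions of like strength. At a mean rank of 40 to 60 over the 4 libraries, intergenic regions ranked lower in 12.4% and higher in 31.2%, while 5′ UTR regions ranked lower in 19.3% and higher in 21.2%.

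**Figure D2:**
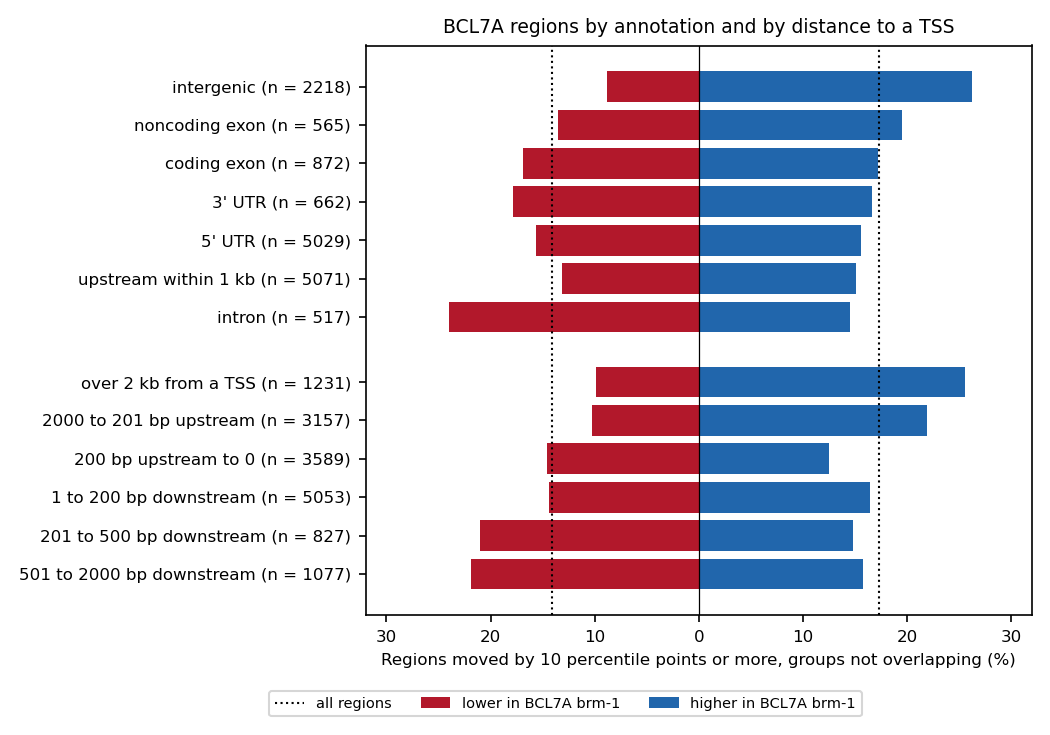
Share of regions that ranked lower (left bars, %) or higher (right bars, %) by 10 points or more in BCL7A brm-1, by annotation of the summit (upper 7 classes) and by distance to the nearest TSS (lower 6 classes), with all regions as dotted lines at 14.1% and 17.3%. Intergenic regions show the smallest lower share (8.84%) and the largest higher share (26.2%) of the annotation classes, and introns the largest lower share (24%).

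The type of the nearest gene divided the regions further. Regions nearest to a long noncoding RNA ranked lower in 10% and higher in 24.9% of 807 cases, and regions nearest to a pseudogene in 3.64% and 23.6% of 165. Regions nearest to a tRNA gene ranked lower in 21.2% and higher in 10.3% of 203 cases, the opposite order. Regions nearest to a protein-coding gene, at 14.5% and 16.7% of 13329, were close to all regions.

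BRM occupancy in plants with BRM was taken from 2 libraries of GFP-tagged BRM outside this contrast, whose lists had been made with other limits and hold wider peaks. Among the 2179 BCL7A regions with no BRM peak in either library, 9.41% ranked lower in BCL7A brm-1 and 23.3% ranked higher. Among the 3763 regions with a BRM rank of 80 to 100, 19.1% ranked lower and 11.8% higher. Over steps of 20 in BRM rank, from the weakest to the strongest, the share of lower regions was 9%, 11.1%, 13.9%, 16.4% and 19.1%.

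This order was seen at gene starts and hardly away from them, and the difference between the places was not tested. With the summit within 200 bp of a TSS, 8.54% of regions without BRM ranked lower and 22.5% higher, against 23.4% lower and 6.74% higher at BRM ranks of 80 to 100. With the summit over 1 kb from a TSS the values were 13.1% and 25.4% without BRM and 13.7% and 18.4% at BRM ranks of 80 to 100. At a mean BCL7A rank of 40 to 60 672 regions without BRM ranked lower in 9.08% and higher in 26.5%, and 743 regions with BRM ranks of 80 to 100 ranked lower in 30.1% and higher in 16.8%.

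**Figure D3:**
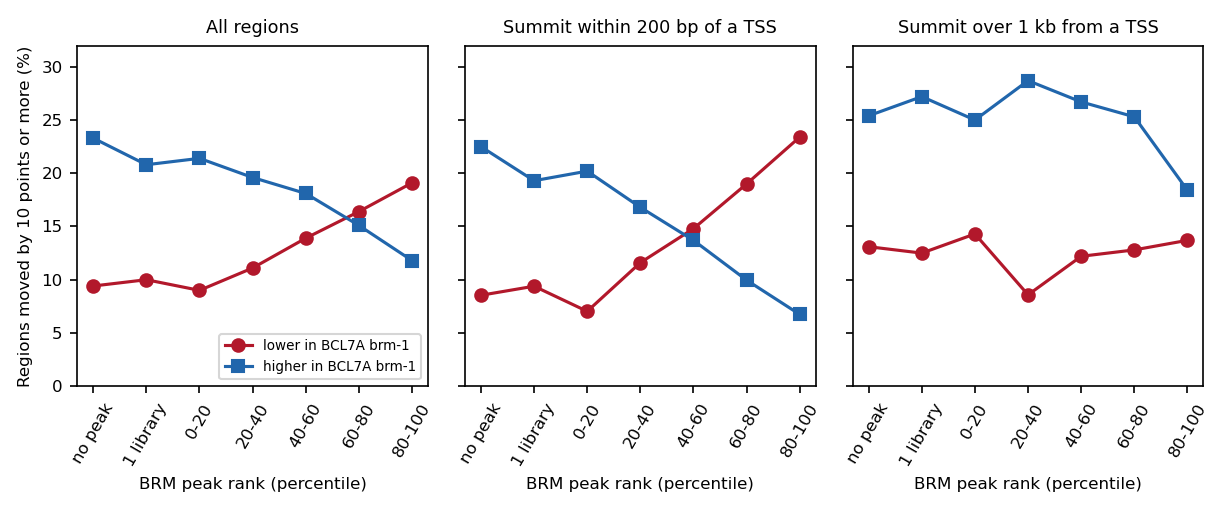
Share of BCL7A regions (vertical axis, %) that ranked lower (circles) or higher (squares) by 10 points or more in BCL7A brm-1, by the strength of the BRM peak at the same region (horizontal axis, from no BRM peak to ranks of 80 to 100), for all regions and by distance to a TSS. Near a TSS the lower share is 8.54% without BRM and 23.4% at ranks of 80 to 100, while over 1 kb from a TSS it is 13.1% and 13.7%.

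Short motifs were also unevenly spread over the regions, searched on both strands in 301 bases around each summit. The GAGA repeat was present in 44.3% of the lower and 37.5% of the higher regions, beside 39.8% of all regions tested. The site II element, which is common upstream of ribosomal protein genes, was present in 17.3% of the lower and 22.6% of the higher regions, beside 23% of all. The telo-box, another element of such promoters, was in 6.07% of the lower and 9% of the higher regions, beside 8.1% of all, and the G-box in 15.9% and 14.3%, beside 16.8%. Lower regions were thus richest in GAGA repeats, and matches are a description of the letters only.

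The genes of vegetative phase change, which times the step from juvenile to adult leaves, ranked lower in 6 of 18 cases (33.3%) and higher in 1 (5.56%), beside 13.5% and 16.1% of all genes. Besides SPL2 and MIR156d, SPL10 ranked at 88.8 and 53.6 in BCL7A brm-1, against 96.3 and 95.7 in BCL7A. SPL11 ranked at 28.6 and 31.5 in BCL7A brm-1, against 68.8 and 45.5 in BCL7A. That is the region nearest to the TSS of SPL11. The strongest peak within 2 kb of SPL11 lay farther upstream, at -1374 and -1333 bp in BCL7A brm-1 and -1372 and -1330 bp in BCL7A, and went the other way, with ranks of 96.6 and 92.9 in BCL7A brm-1, against 87.7 and 86.3 in BCL7A. TOE2, an AP2-type target of miR172, ranked at 39.0 and 51.9 in BCL7A brm-1, against 64.6 and 65.6 in BCL7A.

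MIR156c, at 21.5 and 31.7 in BCL7A brm-1 and 49.1 and 32.2 in BCL7A, was separated by less than a point between its nearest libraries. MIR172c was the 1 gene of the list that ranked higher, at 50.6 and 37.8 in BCL7A brm-1 and 29.5 and 23.7 in BCL7A. That is the region nearest to its TSS. The strongest peaks within 2 kb of MIR172c ranked at 55.1 and 37.8 in BCL7A brm-1, against 29.7 and 36.1 in BCL7A. They lay at 1591 and -1059 bp in BCL7A brm-1 and at 1517 and 1581 bp in BCL7A. On normal scores 3 genes of the list passed the test, SPL2, MIR156d and SPL10 (adjusted p = 0.0129, limma), all lower in BCL7A brm-1. SPL9 had ranks of 37.9 and 10.4 in BCL7A brm-1, against 26.5 and 20.6 in BCL7A, so that its replicates were too far apart to show a change or its absence.

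Among 19 circadian clock genes, 4 (21.1%) ranked lower and 1 (5.26%) higher, beside 13.5% and 16.1% of all genes. ELF3, a member of the evening complex, ranked at 39.0 and 45.3 in BCL7A brm-1, against 75.3 and 72.8 in BCL7A. A stronger ELF3 peak, at -893 bp, ranked at 64.8 in BCL7A brm-1 replicate 2. The partner of ELF3, ELF4, ranked at 67.9 and 77.9 in BCL7A brm-1, against 83.5 and 93.2 in BCL7A. TOC1, an evening repressor of the morning genes, ranked at 85.6 and 75.3 in BCL7A brm-1, against 88.0 and 93.5 in BCL7A. The morning gene PRR9 was the 1 that ranked higher, at 65.6 and 75.6 in BCL7A brm-1, against 53.5 and 44.3 in BCL7A. None of the list passed on normal scores, where the adjusted p was 0.0678 for ELF3, which passed on the log2 fold (adjusted p = 0.0273, limma). PRR7, which changed by less than 10 points, also passed on the log2 fold (adjusted p = 0.03), at ranks of 86.1 and 91.3 in BCL7A brm-1, against 95.2 and 97.6 in BCL7A.

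Of 11 flowering time genes, 4 (36.4%) ranked higher and 2 lower, both shares above the 16.1% and 13.5% of all genes. FLC, the repressor of flowering that vernalization silences, ranked at 28.6 and 17.2 in BCL7A brm-1, against 2.17 and 9.48 in BCL7A, a weak site in all 4 libraries. Its relative MAF5 ranked at 76.9 and 82.2 in BCL7A brm-1, against 69.9 and 52.4 in BCL7A. The summits with these ranks lay at -339 and -356 bp in BCL7A brm-1 and at -1120 and -1033 bp in BCL7A, so different places were compared. SVP and AGL20 (also called SOC1) ranked higher by 19.1 and 18.3 points, and MAF3 and TSF ranked lower, with changes of -17.8 and -12.4 points. For SVP that is the region nearest to its TSS. The strongest peaks within 2 kb of SVP ranked at 52.7 and 64.8 in BCL7A brm-1, against 55.6 and 55.4 in BCL7A. They lay at -962 and -1035 bp in BCL7A brm-1 and at 89 and 406 bp in BCL7A. None of the flowering time genes passed the test on ranks, on normal scores or on the log2 fold.

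Of 14 genes of SWI/SNF subunits, 7 (50%) changed by less than 5 points, beside 39.1% of all genes, and 1 ranked lower and 1 higher. BRM itself ranked at 86.8 and 87.5 in BCL7A brm-1, against 87.6 and 91.9 in BCL7A. SYD, which encodes the alternative ATPase, ranked at 55.4 and 76.7 in BCL7A brm-1, against 38.6 and 45.1 in BCL7A, a change of 24.2 points. It did not pass on ranks (adjusted p = 0.331) or on normal scores (adjusted p = 0.222, limma). AT5G55210 of the same list, the gene of BCL7B, ranked lower, at 28.0 and 20.0 in BCL7A brm-1 and 69.2 and 31.9 in BCL7A. Its BCL7A replicates thus lay far apart.

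Among 14 meristem, boundary and leaf polarity genes, PTL, REV and ATHB-15 ranked lower (21.4%), and AS2 and TCP2 ranked higher (14.3%), beside 13.5% and 16.1% of all genes. AS2, a factor of leaf polarity, ranked at 57.2 and 57.6 in BCL7A brm-1, against 39.3 and 12.8 in BCL7A. Of 8 type-A response regulators, which dampen cytokinin signalling, ARR15 and RR17 ranked higher and ARR9 lower. ARR15 ranked at 56.9 and 43.6 in BCL7A brm-1, against 7.57 and 26.7 in BCL7A. Its strongest summits within 2 kb lay at different places, at -925 and -835 bp in BCL7A brm-1 and at -40 and -47 bp in BCL7A. Those in BCL7A ranked at 27.8 and 41.4, so the rise was that of an upstream region and not of the summit at the TSS. Of the list members with no region in all 4 lists, ARR6 had its strongest summits at different places, ranked at 11.5 and 13.6 in BCL7A brm-1, against 51.8 and 61.3 in BCL7A. RR5 (also called ARR5) had a peak in 1 BCL7A brm-1 library, ranked at 2.11, against 33.4 and 26.1 in BCL7A. Of 7 Polycomb and H3K27 demethylase genes, MSI1 ranked higher (85.0 and 88.0 in BCL7A brm-1, 73.3 and 77.1 in BCL7A) and none lower by this rule. REF6, an H3K27 demethylase, changed by -9.90 points, just under the rule, at 80.2 and 92.6 in BCL7A brm-1, against 96.7 and 96.0 in BCL7A, and was called lower on the log2 fold (adjusted p = 0.0257, limma).

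Larger gene families, taken by their annotated products, differed in direction. Of 17 Aux/IAA genes, which encode auxin-responsive repressors, 7 (41.2%) ranked lower and 0 higher, beside 13.5% and 16.1% of all genes. IAA18 ranked at 16.3 and 28.1 in BCL7A brm-1, against 50.8 and 53.3 in BCL7A. IAA1 ranked at 77.9 and 80.7 in BCL7A brm-1, against 92.9 and 90.6 in BCL7A. The other 5 were IAA2, IAA5, IAA10, IAA33 and SHY2, and at each of the 7 both BCL7A brm-1 libraries lay below both BCL7A libraries. None of the 7 passed on normal scores.

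Of 39 genes annotated as WRKY factors (of defence and senescence), 13 (33.3%) ranked lower and 1 higher, beside 13.5% and 16.1% of all genes. None of these 14 passed on normal scores, where the 1 member that passed, WRKY60, was higher and changed by less than the rule of size asks. WRKY40, a repressor of defence genes, ranked at 41.3 and 29.1 in BCL7A brm-1, against 65.1 and 61.4 in BCL7A. WRKY7 ranked at 51.4 and 37.2 in BCL7A brm-1, against 71.5 and 73.3 in BCL7A, and WRKY53, a regulator of leaf senescence, at 21.9 and 25.5, against 35.2 and 42.8. WRKY24 was the 1 member that ranked higher. Resistance genes of the NB-LRR family, receptors of pathogen effectors, ranked lower in 22 of 81 cases (27.2%) and higher in 8 (9.88%). RPS6 ranked at 23.1 and 26.5 in BCL7A brm-1, against 71.9 and 45.1 in BCL7A. AT1G58400 went the other way, at 85.9 and 80.7 in BCL7A brm-1 and 30.1 and 47.1 in BCL7A (adjusted p = 0.00526 on normal scores, limma).

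Photosystem and light-harvesting genes ranked lower in 12 of 54 cases (22.2%) and higher in 6 (11.1%), beside 13.5% and 16.1% of all genes. LHB1B2, a light-harvesting protein of photosystem II, ranked at 44.1 and 30.6 in BCL7A brm-1, against 67.5 and 79.0 in BCL7A. LHCB5 ranked at 19.2 and 28.6 in BCL7A brm-1, against 65.8 and 48.9 in BCL7A, and LHCB3 at 39.0 and 24.4, against 63.0 and 61.7. The light-stress proteins ELIP1 and ELIP2 were among the 6 that ranked higher, ELIP1 at 77.1 and 81.8 in BCL7A brm-1, against 47.7 and 65.2 in BCL7A. Factors of the bHLH family ranked lower in 12 of 74 cases (16.2%), near the share of all genes, and higher in 5 (6.76%). The lower ones included ICE1 and SCRM2, partners in stomatal development, and SPCH, which starts that lineage. SPCH was a weak site, at 3.88 and 0.535 in BCL7A brm-1 and 25.6 and 14.0 in BCL7A.

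Other families had more higher than lower members. Ribosomal protein genes ranked higher in 49 of 222 cases (22.1%) and lower in 23 (10.4%), beside 16.1% and 13.5% of all genes. The ribosomal protein gene AT3G62870 ranked at 66.8 and 61.9 in BCL7A brm-1, against 19.7 and 27.3 in BCL7A, on a region shared with the pentatricopeptide repeat gene AT3G62890. Pentatricopeptide repeat proteins, most of which process organelle RNA, ranked higher in 36 of 181 cases (19.9%) and lower in 15 (8.29%), with AT1G13040 at 76.9 and 68.5 in BCL7A brm-1, against 25.6 and 31.1 in BCL7A. Translation factors, at 14 (19.7%) higher and 8 (11.3%) lower of 71, were near the shares of all genes.

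Peroxidases ranked higher in 13 of 33 cases (39.4%) and lower in 4 (12.1%), beside 16.1% and 13.5% of all genes. AT4G36430 ranked at 69.7 and 83.9 in BCL7A brm-1, against 55.3 and 43.3 in BCL7A. Of the 17 peroxidase genes that moved, AT3G28200 passed on normal scores and ranked lower, at 20.7 and 0.670 in BCL7A brm-1 and 56.6 and 38.1 in BCL7A (adjusted p = 0.0415, limma). MADS factors ranked higher in 11 of 44 cases (25%) and lower in 4 (9.09%), and of these 11 only AGL66 passed on normal scores. Proteasome subunits held in 14 of 24 cases (within 5 points), with 1 lower and 1 higher, beside 39.1% of all genes. Genes that share a region were counted each, so the genes of a family are not independent.

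**Figure D4:**
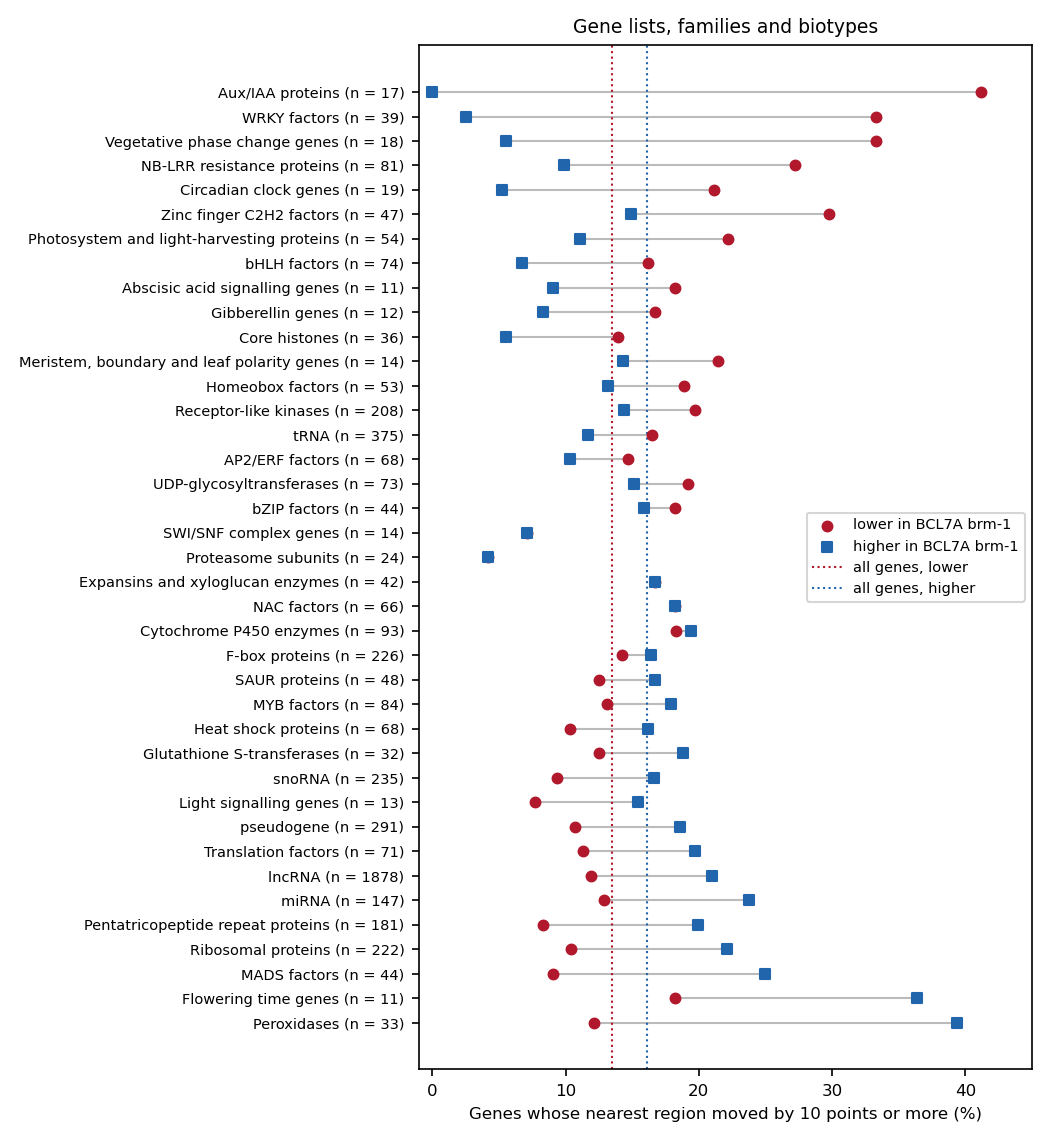
Share of the genes in each list, family or biotype (horizontal axis, %) whose nearest region ranked lower (circles) or higher (squares) by 10 points or more in BCL7A brm-1, for lists with 10 or more genes tested, with all genes as dotted lines at 13.5% and 16.1%. Aux/IAA proteins lie at 41.2% lower and 0% higher, and peroxidases at 12.1% lower and 39.4% higher.

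MicroRNA genes with a region in all 4 lists ranked higher in 35 of 147 cases (23.8%) and lower in 19 (12.9%). The shares of all genes were 16.1% higher and 13.5% lower, so the lower share was near that of all genes. Besides MIR773a, MIR166d ranked higher by 48.3 points (adjusted p = 0.00613 on normal scores, limma), with the summit at -612 bp. MIR166 and MIR165 genes give microRNAs that restrict HD-ZIP III factors of leaf polarity. MIR166g also ranked higher, by 18.3 points, whereas MIR166a ranked lower, with a change of -25.7 points. MIR396b, whose product restrains growth factors of the GRF family, changed by -29.1 points (adjusted p = 0.0286 on normal scores, limma), and MIR167a by -29.2 points. No direction was thus common to all microRNA genes that guide development.

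BCL7B libraries with and without BRM were used to read the same regions in data that the BCL7A contrast did not use. They comprised 4 further libraries, and 11678 regions had a peak in all 8 lists of both proteins. At the 1466 regions of these that ranked lower for BCL7A in BCL7A brm-1, the median BCL7B rank was 40.6 and 41.5 in BCL7B brm-1, against 63.9 and 64.5 in BCL7B. At the 1980 regions that ranked higher for BCL7A it was 55.8 and 57.4 in BCL7B brm-1, against 49.1 and 49.4 in BCL7B. The median change of BCL7B was thus -19.5 points at the lower regions and 6.90 points at the higher ones, beside -2.56 points over all 11678.

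BCL7B was lower in BCL7B brm-1 at 81.6% of the regions where BCL7A ranked lower, at 35.5% of those where BCL7A ranked higher and at 57.5% of all. By the rule of 10 points without overlap, BCL7B ranked lower at 60% and higher at 5.66% of the lower BCL7A regions. At the higher BCL7A regions it ranked lower at 14.1% and higher at 37%. The correlation of the BCL7A and BCL7B changes over the 11678 regions was 0.434, which is a description, since neighbouring regions are not independent and all lists share the same annotation and base composition.

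At PTL the BCL7B peak ranked at 94.9 and 94.5 in BCL7B, and neither BCL7B brm-1 library had a peak there. At HA1 one BCL7B brm-1 library had no peak and the other ranked at 39.1, against 99.2 and 98.3 in BCL7B. At AT1G76520 the BCL7B ranks were 21.4 and 21.7 in BCL7B brm-1, against 97.9 and 98.5 in BCL7B. The genes that ranked higher for BCL7A were less uniform. Of the 33 peroxidase genes, of which 13 ranked higher for BCL7A, 26 had a BCL7B peak in all 4 BCL7B libraries. Their median BCL7B change was -13.4 points, with 19 of the 26 lower, beside -1.71 points for all genes. At AT1G70420 BCL7B was higher too, at 68.1 and 73.8 in BCL7B brm-1, against 43.5 and 37.8 in BCL7B. At AGL66 it ranked at 24.1 in BCL7B brm-1 replicate 2 and at 46.9 in BCL7B replicate 1, and the other BCL7B libraries had no peak there. The regions that ranked lower for BCL7A were thus often lower for BCL7B too, and 257 (12.7%) of the 2016 that had a BCL7B peak in both BCL7B libraries had one in neither BCL7B brm-1 library, beside 5.77% of all such regions.

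**Figure D5:**
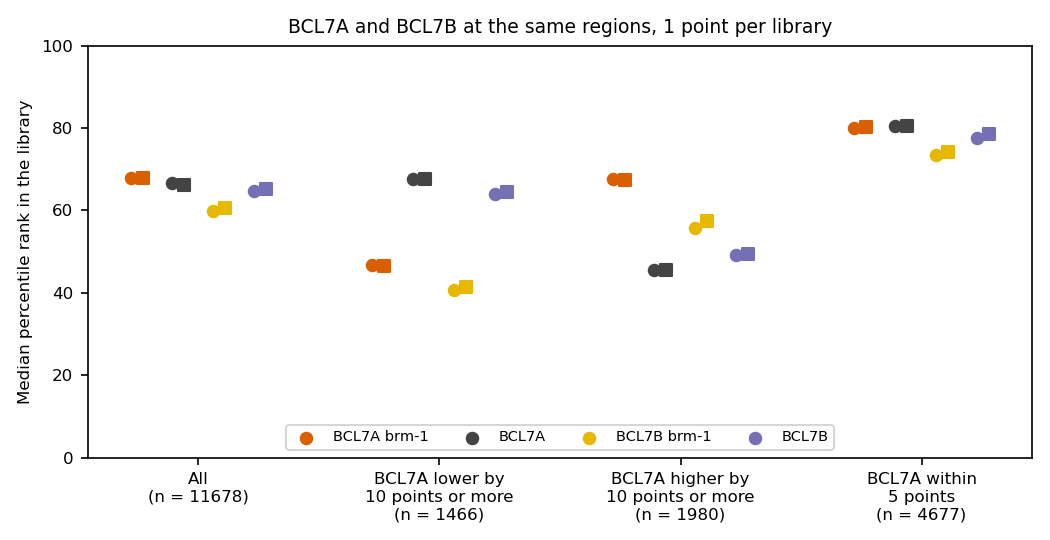
Median percentile rank (vertical axis, 0 to 100) of BCL7A and BCL7B in each of the 8 libraries (1 point per library, circles for replicate 1 and squares for replicate 2) over regions present in all 8 lists, grouped by the change of BCL7A in BCL7A brm-1. At regions lower for BCL7A the BCL7B medians are 40.6 and 41.5 in BCL7B brm-1 and 63.9 and 64.5 in BCL7B, and the BCL7A medians define the groups.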

How the data were processed

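According to the methods of the study, reads were trimmed, aligned to TAIR10 with Bowtie 2 and peaks called per library with MACS2 (version 2.1.1 in the submitters' processing notes) at a q-value limit of 0.05. Use of an input control was not given in the sources used here. The authors deposited, for each peak, the fold enrichment (a ratio of pileup to background at the summit) and the −log10 p and −log10 q of the MACS2 test. Fold enrichment was converted here to a percentile rank within each list. Peaks of the 4 lists sharing 1 bp were merged into regions, represented in each library by the strongest peak, and ranks were tested with limma 3.58.1 in R 4.3.3 with a trended prior. Summits were annotated with the TAIR10.1 genes of RefSeq. The peak lists carry no total read numbers, and those summarised in the supplement of the study were not used here. Pileups were recovered from the fold and p-value (tolerance 0.02 in −log10 p). The test was checked on simulated data.

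No region passed the test on ranks, so the named genes are those with the largest change by the rule of 10 points without overlap: 12 protein-coding genes per direction, the 10 lost and 10 new genes of highest rank, and moved, lost or new members of the gene lists. Examples of families and the genes said to hold were chosen after their values were seen. Of 210 list members, 202 matched the annotation. The gene lists and the members were chosen with earlier results of these data known, so list counts are descriptions. Alternatives were other scales, a stricter q limit, lists of equal length, a 1 kb window, any part of a peak, second lists and leaving out each library.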

Additional observations from a re-analysis of the deposited data

Results flagged for a closer look

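The number of genes with a summit within 2 kb of the TSS moved in opposite directions for the 2 proteins. For BCL7A it was 23195 and 23227 in BCL7A brm-1 and 22531 and 22490 in BCL7A, a difference of 700.5 genes. For BCL7B it was 19909 and 20199 in BCL7B brm-1 and 21590 and 21853 in BCL7B, a difference of -1667.5 genes. Every library of each brm-1 group lay beyond both libraries of its control group, and the difference between the proteins was not tested.

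At 23 of the 11678 regions present in all 8 lists the change of BCL7A differed from that of BCL7B (interaction term of limma on ranks, adjusted p of 0.0464 at the smallest, added after seeing the data), and 2092 regions had an unadjusted p under 0.05. The BCL7A change was above the BCL7B change at 22 of the 23. At AT1G52200, of the PLAC8 family, BCL7A ranked at 56.9 and 55.2 in BCL7A brm-1, against 38.6 and 10.2 in BCL7A, while BCL7B ranked at 5.95 and 12.5 in BCL7B brm-1, against 78.1 and 69.8 in BCL7B. AT4G26410 was the 1 region of the opposite kind, with BCL7A at 87.9 and 90.9 in BCL7A brm-1, against 95.5 and 95 in BCL7A, and BCL7B at 93.8 and 94.8 in BCL7B brm-1, against 80.1 and 79.4 in BCL7B.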

How the results depend on the processing

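Regions called lower and higher numbered 444 and 160 on the log2 fold, 186 and 235 on normal scores and 122 and 134 on pileup ranks, against 0 and 0 on ranks. Leaving out 1 library gave 0 to 190 lower and 0 to 132 higher, and the replicate block gave 0 and 0 (same-numbered libraries did not deviate together, with a correlation of 0.0023 over regions, and every named change kept its direction under the block). Among regions in both second lists, 1146 moved lower and 1355 higher by 10 points. Genes retained came to 94.5% at a −log10 q of 5 or more, 93.9% with lists of equal length, 92.5% with a 1 kb window, 96% with any part of a peak and 92.5% to 96.8% without 1 library. Without 1 library, 615 to 726 genes were lost and 1042 to 1274 new, since 1 library then stands for its group. Differences in summit share (BCL7A brm-1 minus BCL7A, percentage points) changed sign for noncoding exons (0.01397 at the stricter q, -0.09768 to 0.03343 without 1 library), 3′ UTRs (-0.03591) and 5′ UTRs (0.1436) with lists of equal length, and summits nearest to microRNA genes (0.009692 at the stricter q, 0.005525 with equal length, -0.01145 to 0.008934 without 1 library). The cause was not tested. At regions called on normal scores the BCL7B change was -36.22 for lower and 11.22 for higher ones. The median change lay below that of all genes in 25 of 41 lists, and in 27 with ranks among tested regions, where 3 lists changed sign. With 2 libraries a group and no read totals in the lists, small changes were not detectable.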
